A study of Mus musculus with 9 samples.

Results

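The small integrin-binding ligand N-linked glycoproteins are 5 matrix proteins of bone and dentin, encoded by Spp1 (osteopontin), Dmp1 (dentin matrix protein), Ibsp (bone sialoprotein), Mepe (matrix extracellular phosphoglycoprotein), and Dspp (dentin sialophosphoprotein). The family was taken by gene name from the deposited table of 50686 genes, where all 5 members were found. Of these, Spp1, Dmp1, and Ibsp were among the 15531 genes with enough counts to be tested, while Mepe and Dspp were not.

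The members were measured by RNA-Seq in 3 groups with n = 3 libraries each. Control osteoblasts were cells of the mouse line MC3T3-E1 without the inhibitor. Treated osteoblasts were the same line given 10 μM SB216763, a compound that inhibits GSK3 kinases, for 14 days. ECs were mouse pulmonary endothelial cells, obtained by sorting and not given the inhibitor. All osteoblast libraries come from 1 cell line. The labels repeat the same 14-day treatment text for every library, so the groups follow the sample titles, and the time in culture of the controls was not given. Nothing states that the libraries of a group came from separate cultures or animals, so p-values measure only the spread between these libraries, which may be technical.

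Members of this family are secreted phosphoproteins, and the acidic and phosphorylated residues that most of them are rich in bind calcium and the surface of apatite crystals. Each carries an arginine-glycine-aspartate sequence that is recognized by integrins on cells. Ibsp is known as a nucleator of apatite in young osteoblast matrix, Spp1 as an inhibitor of crystal growth and a product of many cell types, and Dmp1 and Mepe as products of osteocytes that act on mineralization and phosphate handling. Dspp is made mainly by the odontoblasts of the tooth.

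The genes form a cluster of 270.3 kb on chromosome 5 and are all read from the plus strand, in the order Dspp, Dmp1, Ibsp, Mepe, Spp1. In GENCODE release M21 on GRCm38, Dspp (ENSMUSG00000053268.7) spans chr5:104170712-104180127, Dmp1 (ENSMUSG00000029307.7) chr5:104202613-104214102, and Ibsp (ENSMUSG00000029306.8) chr5:104299171-104311469. Mepe (ENSMUSG00000053863.3) spans chr5:104325329-104338611 and Spp1 (ENSMUSG00000029304.14) chr5:104435118-104441050. No other protein-coding gene lies between them.

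The feature shared by the proteins is visible in the coding DNA, and the stretches around the arginine, glycine, and aspartate codons are shown because this motif defines the family. Each stretch is the coding strand of the longest coding transcript in GENCODE M21, with the 3 codons in capitals. The coordinates on GRCm38, plus strand, are those of the capital bases.
Spp1, chr5:104439481-104439489: cccaacggcCGAGGTGATagcttggct
Dmp1, chr5:104212507-104212515: agcgagtccAGGGGTGACaacccagat
Ibsp, chr5:104310475-104310483: ggggagcctCGTGGCGACacttaccga
Mepe, chr5:104337542-104337550: cttctagtgAGGGGAGATaatgatgtc
Dspp, chr5:104177207-104177215: agtggcagcCGTGGAGATgcttcttac
The capitals lie in exon 7 of 8 in Spp1, and in the last exon of Dmp1 (exon 6), Ibsp (exon 7), Mepe (exon 3), and Dspp (exon 5). Each member holds the motif at 1 place, with arginine as codon 145 of Spp1, 350 of Dmp1, 293 of Ibsp, 183 of Mepe, and 479 of Dspp. The same 3 codons in a row occur in 7.405% of the 20972 protein-coding genes. Codons for aspartate and glutamate make up 28.0% of Dmp1, 25.3% of Dspp, 24.1% of Ibsp, and 23.1% of Spp1, against 10.7% of Mepe and a median of 11.1% over all protein-coding genes. These 4 members stand apart from Mepe in acidic codons. Serine codons divide them otherwise, with 36.4% of Dspp, 22.9% of Dmp1, 17.3% of Spp1, 14.1% of Mepe, and 8.02% of Ibsp, against a median of 7.92%. Dmp1 holds 40 sites where a serine codon is followed, after 1 codon, by a glutamate codon, which is the sequence phosphorylated by the kinase Fam20c. Spp1 holds 20 such sites, Dspp 10, Ibsp 8, and Mepe 7. Per 100 codons this is 7.95 in Dmp1, 6.78 in Spp1, 2.47 in Ibsp, 1.59 in Mepe, and 1.06 in Dspp, against a median of 0.449.

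Promoter windows of 250 bases before the transcription start were found in RefSeq for Spp1, Dmp1, Ibsp, and Mepe, and 1 for each gene is shown because the tested members differed in direction although they are neighbours on the same strand. The sequences are those of RefSeq on GRCm38.p6, plus strand. Capitals mark 3 motifs on either strand. The first is CCAAT, which reads ATTGG when it lies on the minus strand. The second is TTTAAA, which reads the same on both strands. The last is ACCACA, which reads TGTGGT when it lies on the minus strand.
Spp1, chr5:104434861-104435110: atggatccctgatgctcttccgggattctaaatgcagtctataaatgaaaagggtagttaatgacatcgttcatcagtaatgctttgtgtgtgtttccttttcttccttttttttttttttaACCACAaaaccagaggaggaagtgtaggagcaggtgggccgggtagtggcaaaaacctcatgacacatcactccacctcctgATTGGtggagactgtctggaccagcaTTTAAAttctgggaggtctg
Dmp1, chr5:104202367-104202616: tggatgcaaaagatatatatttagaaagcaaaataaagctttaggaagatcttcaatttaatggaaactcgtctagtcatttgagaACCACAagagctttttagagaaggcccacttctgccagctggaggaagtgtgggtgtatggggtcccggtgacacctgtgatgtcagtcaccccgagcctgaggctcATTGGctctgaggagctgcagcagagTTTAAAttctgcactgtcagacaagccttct
Ibsp, chr5:104299037-104299286: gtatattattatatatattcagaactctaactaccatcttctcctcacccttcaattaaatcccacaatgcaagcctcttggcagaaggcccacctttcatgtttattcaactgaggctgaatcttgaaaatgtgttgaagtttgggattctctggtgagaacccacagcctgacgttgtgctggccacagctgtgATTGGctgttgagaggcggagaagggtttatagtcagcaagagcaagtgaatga
Mepe, chr5:104325079-104325328: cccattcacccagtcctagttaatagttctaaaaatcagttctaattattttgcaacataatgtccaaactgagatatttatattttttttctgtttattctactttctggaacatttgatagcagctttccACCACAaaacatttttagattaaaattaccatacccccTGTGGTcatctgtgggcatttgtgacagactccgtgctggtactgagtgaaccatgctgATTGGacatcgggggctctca
RefSeq held 6 windows for these genes, since Spp1 and Dmp1 each had a second start, and all 6 were searched. RefSeq and GENCODE place some starts differently. The Ibsp window, and the last bases of the Dmp1 window shown, run past the GENCODE gene start given above. The second Spp1 window begins inside the GENCODE span of Spp1. The letters CCAAT, the core of the box bound by NF-Y, occurred in the 4 windows shown, on the minus strand, and at -101 in the second Dmp1 window, but not in the second Spp1 window. Counted from the start, the first base of the match in the windows shown was at -46 in Spp1, -57 in Dmp1, -54 in Ibsp, and -21 in Mepe, and 33.8% of 32851 RefSeq windows of this length held these letters. The TATA-like TTTAAA was found at -20 in Spp1 and -31 in Dmp1 (12.1% of all windows), while Ibsp held TATAAA at -28 on the minus strand (12.4%). TATAAA also occurred at -211 in Spp1 and, on the minus strand, at -173 in Mepe. Neither TTTAAA nor TATAAA was in the second window of Spp1 or Dmp1. ACCACA, the core bound by RUNX factors, was present at -128 in Spp1, at -164 in Dmp1, and at -118 and -80 in Mepe, but not in the Ibsp window or the second windows of Spp1 and Dmp1 (14.0% of all windows). Of the letters bound by TCF and LEF factors, CTTTGA was found in none of the members' windows (13.8%) and CTTTGT in Spp1 alone (16.5%), at -168 and, in a second Spp1 window, at -243. The AP-1 letters TGANTCA were in none (6.75%). The homeodomain core TAATTA was at -208 in Mepe and at -122 in the second Spp1 window (4.84%). These matches describe letters and not occupied sites. The motifs were chosen after the sequences were seen, so the matches and the shares of all windows are not a test.

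The libraries held between 30990107 and 68946333 counts, so that 3 counts, taken as the smallest level this depth can show, correspond to between 0.0435 and 0.0968 CPM (the count scaled to the library total, with TMM normalization for all levels given below). Intervals and this limit cover counting error only. The summed level of 6 osteoblast markers was between 19948 and 28528 CPM in controls, between 2819 and 2971 CPM in treated osteoblasts, and between 28.9 and 38.2 CPM in ECs. Col1a1 made up most of this sum, with a mean of 24511 CPM in controls and 2732 CPM in treated osteoblasts. Of these markers, Sp7, Alpl, and Col1a1 fell with treatment and 0 rose, by the threshold given below. The log2 fold changes of Runx2 (-0.44), Bglap (-1.12), and Bglap2 (0.29) did not reach it. The 6 endothelial markers summed to between 6079 and 6230 CPM in ECs and to between 2.06 and 2.78 CPM in the 6 osteoblast libraries. In bulk libraries, fewer cells of a type and less RNA per cell cannot be told apart, which holds for every level given here.

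Between treated and control osteoblasts, Spp1 and Dmp1 rose and Ibsp fell. A gene was called when its log2 fold change was 2 or more in either direction and its adjusted p (FDR) was under 0.01. Of the 5 members, 3 were tested. Of these, 2 were called higher, beside 3.81% of all genes tested, and 1 was called lower, beside 5.84%. Control osteoblasts had higher levels than ECs of 2 members (9.87% of all genes) and lower levels of 0 (13.5%). Treated osteoblasts had higher levels than ECs of 3 members (10.3%) and lower levels of 0 (15.0%). Each pair of these comparisons shares 1 group of libraries, so their counts are not independent of each other. The members were chosen with earlier results of these data known, so the counts beside these shares are a description and not a test.

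**Figure D1:**
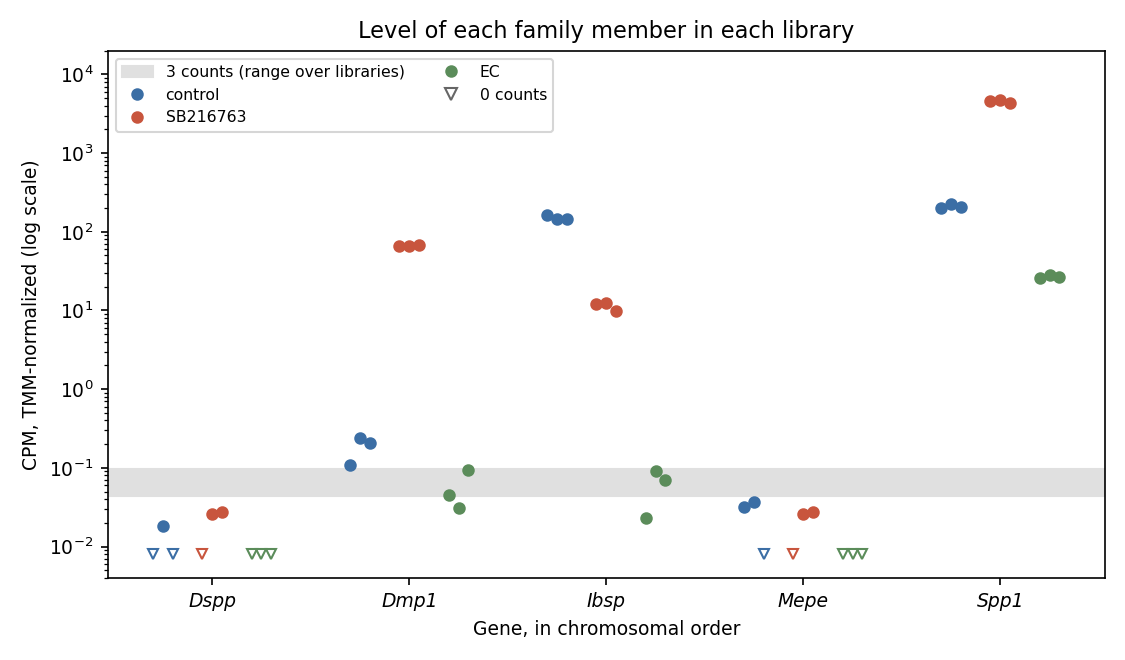
Level of each member in each of the 9 libraries, in TMM-normalized CPM on a log axis, with 1 point for each library. Shading marks the range of CPM that 3 counts give before TMM normalization, and open triangles mark 0 counts. Spp1 lies between 203 and 224 CPM in controls and between 4352 and 4679 CPM after SB216763, whereas Ibsp lies between 145 and 164 CPM in controls and between 9.75 and 12.3 CPM after SB216763.

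Ibsp, the nucleator, was a gene of the control osteoblasts. It reached 164, 147, and 145 CPM in the control libraries (10401, 8053, and 4169 counts), 12.1, 12.3, and 9.75 CPM in the treated libraries (423, 473, and 358 counts), and 0.0229, 0.0914, and 0.0695 CPM in ECs (1, 3, and 3 counts). Every control library lay above every treated library, and every treated library above every EC library. The share of all genes tested that separate in this way is not given, so separation here and below only describes the libraries. The mean fell from 151.7 ± 10.5 to 11.4 ± 1.43 CPM (SD, n = 3), a log2 fold change of -3.74 (SE 0.08, edgeR adjusted p = 8.58e-16). Of all genes tested, 283 had a lower log2 fold change. The treated libraries nevertheless kept Ibsp above ECs, with a log2 fold change of 7.53 (SE 0.23, edgeR adjusted p = 2.81e-14). Since ECs held so few Ibsp counts, the ratio of summed counts, scaled by the TMM library sizes, is given beside the fit, and it was 195 with a 95% counting interval from 94.3 to 486 for treated osteoblasts against ECs. For controls against ECs the same ratio was 2627 (1275 to 6535), the fitted log2 fold change was 11.27 (SE 0.16, edgeR adjusted p = 1.8e-18), and only 8 genes had a larger fold. These SEs against ECs come from the F statistic and understate the counting error of so few counts, so the intervals are the better guide.

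Spp1, the crystal growth inhibitor, was the most abundant member in every library and the member that rose to the highest level. It was measured at 203, 224, and 204 CPM in controls (12871, 12289, and 5868 counts), at 4637, 4679, and 4352 CPM after SB216763 (161773, 179482, and 159809 counts), and at 25.9, 28.0, and 26.3 CPM in ECs (1131, 919, and 1134 counts). The groups did not overlap, and the replicates of each group lay close together. From 210.1 ± 11.8 CPM in controls the mean rose to 4556 ± 178 CPM (SD, n = 3), a 21.7-fold increase (log2 fold change 4.44, SE 0.07, edgeR adjusted p = 2.27e-17). Per kilobase of exon, Spp1 ranked 328 of the genes tested in controls and 4 in treated osteoblasts. In ECs it ranked 3217, and it was the only member above the limit of 3 counts in all EC libraries. Controls had 7.87-fold more Spp1 than ECs (log2 fold change 2.98, SE 0.06, edgeR adjusted p = 2.86e-16) and treated osteoblasts 170.6-fold more (log2 fold change 7.41, SE 0.08, edgeR adjusted p = 6.71e-20). A gene model on the same strand, Gm42793, overlaps Spp1, with 1 to 3 counts in control and 48 to 121 counts in treated libraries.

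Spp1 is also made by macrophages. The 6 macrophage markers summed to between 26.8 and 28.3 CPM in controls, between 8.54 and 10.0 CPM in treated osteoblasts, and between 57.3 and 59.5 CPM in ECs. Of the 3 that were tested, 0 were called between treated and control osteoblasts, but they differed in direction with an FDR under 0.01 and a smaller fold. Lyz2, which made up most of the sum, was at 26.01 CPM in controls and 7.04 CPM after treatment (log2 fold change -1.88), and Csf1r at 0.652 and 0.229 CPM (-1.48). Cd68, a lysosomal protein of macrophages, was at 0.532 CPM in controls and 1.63 CPM after treatment (1.63), and its part in the level of Spp1 was not tested. In the treated libraries the leukocyte gene Ptprc had 2 to 11 counts, and the macrophage genes Adgre1 and Itgam had 0 or 1 count.

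Dmp1, the osteocyte product, was near the limit of detection in controls and clearly expressed after SB216763. The control libraries held 0.110, 0.237, and 0.208 CPM (7, 13, and 6 counts), the treated libraries 66.6, 65.3, and 67.1 CPM (2323, 2507, and 2465 counts), and the EC libraries 0.0458, 0.0305, and 0.0927 CPM (2, 1, and 4 counts). The treated libraries lay far above all others, and the lowest control, at 0.110 CPM, lay just above the highest EC library, at 0.0927 CPM. The log2 fold change between treated and control osteoblasts was 8.53 (SE 0.11, edgeR adjusted p = 1.24e-17), which only 4 of the genes tested exceeded. The ratio of scaled counts was 376, with a 95% counting interval from 256 to 575. As for Ibsp against ECs, the SEs of Dmp1 understate the counting error of the low groups. Dmp1 thus had the largest fold of the family but a treated level of 66.4 ± 0.913 CPM (SD, n = 3), well under that of Spp1. Per kilobase of exon it ranked 13864 of the genes tested in controls and 2121 after treatment. Against ECs, the ratio was 1134 (550 to 2822) for treated osteoblasts, with a fitted log2 fold change of 10.08 (SE 0.14, edgeR adjusted p = 1.14e-18). Dmp1 passed the filter on low counts only through the treated libraries. Its p-values and fold ranks for the treated group therefore describe a gene that was kept for its level there. Without the filter, its log2 fold change against controls was also 8.53. In a fit of controls and ECs alone Dmp1 was not kept, so the comparison of those groups is a description. The ratio was 3.02 (1.28 to 8.24), and the log2 fold change in the fit of all libraries was 1.55, under the fold threshold, and 2.10 without EC replicate 3.

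Mepe and Dspp were not detectable at this depth. Mepe had 2, 2, and 0 counts in controls, 0, 1, and 1 in treated osteoblasts, and 0 in every EC library. Dspp had 0, 1, and 0 counts in controls, 0, 1, and 1 after treatment, and 0 in every EC library. No library exceeded the limit of 3 counts for either gene, so no fold is given. In a fit without the filter on low counts, neither passed between treated and control osteoblasts (edgeR unadjusted p = 0.726 for Mepe and 0.518 for Dspp). Levels under the limit may still have differed.

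**Figure D2:**
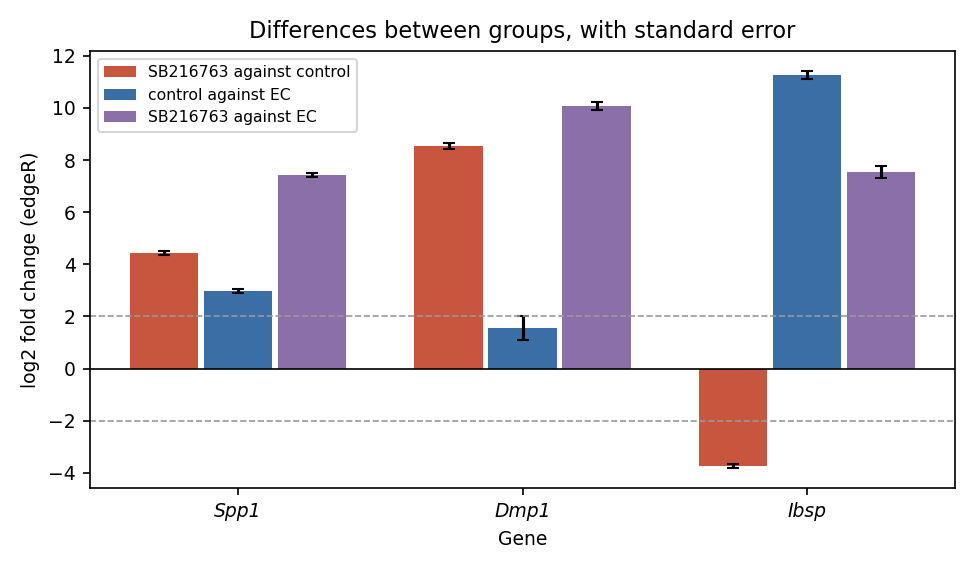
Log2 fold change of Spp1, Dmp1, and Ibsp in the 3 comparisons as bars from 0, with error bars of 1 SE, and dashed lines at the threshold of 2 in either direction. For Dmp1, and for Ibsp against ECs, the SE understates the counting error of the group with few counts. Between treated and control osteoblasts, Dmp1 (8.53) and Spp1 (4.44) lie above 0 and Ibsp (-3.74) below, and all bars but Dmp1 in control against EC (1.55) pass the threshold.

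Because the members moved apart, the makeup of the family changed with treatment. Levels of different genes are compared here only per kilobase of exon. In controls, Spp1 stood at 127 CPM per kilobase, Ibsp at 73.4, and Dmp1 at 0.0670. In treated osteoblasts the order was Spp1 at 2765, Dmp1 at 24.01, and Ibsp at 5.51 CPM per kilobase, so that Dmp1 and Ibsp changed places. The ratio of Spp1 to Ibsp per kilobase was 1.55, 1.91, and 1.77 in the control libraries and 480, 476, and 560 in the treated libraries. The ratio of Dmp1 to Ibsp in the treated libraries was 4.11, 3.97, and 5.15.

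Of the summed CPM per kilobase of the family, Spp1 held 63.4% and Ibsp 36.5% in controls, with 0.0333% for Dmp1. After SB216763, Spp1 held 98.9%, Dmp1 0.860%, and Ibsp 0.197%. In ECs 99.7% was Spp1. The summed level of the 5 members was 362 ± 11.6 CPM in controls, 4634 ± 178 CPM in treated osteoblasts, and 26.8 ± 1.12 CPM in ECs (SD, n = 3). As a share of all counts in a library, the family took 0.0335% in controls, 0.494% after treatment, and 0.00271% in ECs.

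**Figure D3:**
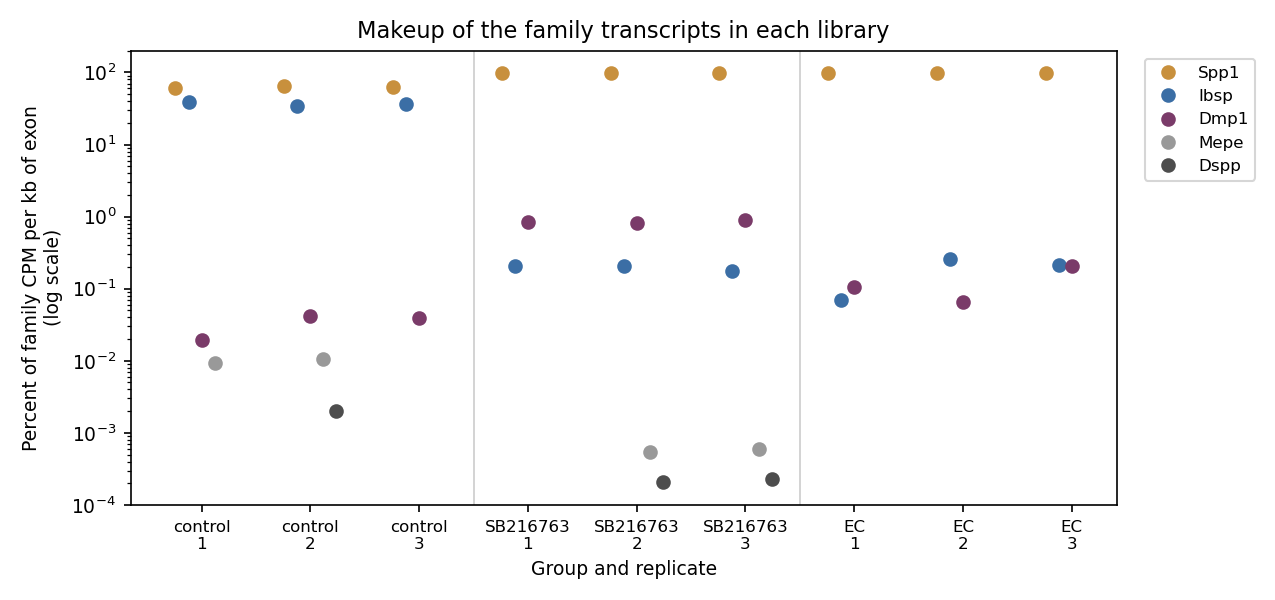
Share of each member in the family's summed CPM per kilobase of exon, as a percent on a log axis, with 1 point for each member in each library; members with 0 counts have no point. Ibsp takes between 34.3% and 39.2% in the control libraries, and in the treated libraries Dmp1 (0.824% to 0.910%) lies above Ibsp (0.177% to 0.208%).

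The cluster's surroundings were examined next, to see whether neighbouring genes differed as the members did. Of the 5 protein-coding genes on each side, 7 were tested, 2 were called higher, and 0 lower between treated and control osteoblasts, beside 3.81% and 5.84% of all genes tested. Sparcl1, which encodes a matrix protein related to osteonectin and lies next to Dspp on the opposite strand, was measured at 14.9, 13.1, and 13.9 CPM in controls, 238.5, 252.5, and 236.9 CPM in treated osteoblasts, and 2.38, 2.38, and 2.97 CPM in ECs. Treated libraries lay above controls and controls above ECs, the same order as for Spp1. Its log2 fold change with treatment was 4.12 (SE 0.06, edgeR adjusted p = 3.87e-17). Between Sparcl1 and Spp1 lie both Ibsp, which fell, and Dmp1, which rose. An antisense gene model, Gm26703, overlaps Sparcl1 and had 0 to 12 counts.

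Pkd2, the polycystin gene next to Spp1 on the other side, was measured at 235, 219, and 225 CPM in controls and at 378, 360, and 367 CPM after treatment (log2 fold change 0.70). Its groups did not overlap, but it did not reach the fold threshold. The log2 fold changes of Hsd17b11 (1.15) and BC005561 (0.34), and that of Nudt9, did not reach the fold threshold. Zfp951 had 1 to 3 counts in each osteoblast library and 530 to 760 in ECs. Its log2 fold change with treatment (0.93, SE 0.77) therefore rests on counts at or under the limit. Gbp8, an interferon-induced GTPase gene at the far edge, had 0 counts in every control library and 122, 117, and 121 counts in the treated libraries, at least 47.8-fold higher against a limit of 3 counts per library. It overlaps Gbp9 and Gbp4 on the same strand, so its counts are uncertain. Gbp9 had 4 to 8 counts in controls and 428 to 480 in treated libraries, and Gbp4 had 0 to 2 and 121 to 132. Hsd17b13, Gm17660, and Abcg3 had too few counts to be tested.

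**Figure D4:**
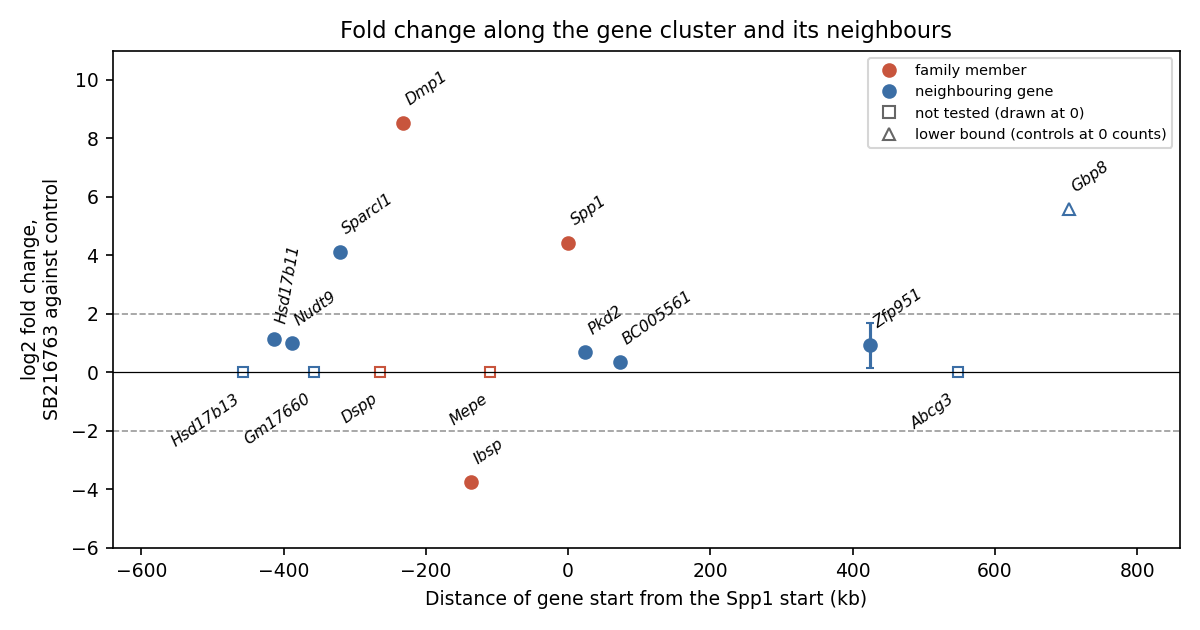
Log2 fold change between treated and control osteoblasts for the members and the 5 protein-coding genes on each side, plotted at the distance of each gene's start from that of Spp1 in kb, with error bars of 1 SE and open squares at 0 for genes not tested. Sparcl1 (4.12), Dmp1 (8.53), and Spp1 (4.44) lie above the threshold with Ibsp (-3.74) between them. The open triangle for Gbp8 is the lower bound of its fold, since its controls had 0 counts. The point of Zfp951 (0.93) rests on 1 to 3 counts in each osteoblast library.

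Genes that act on the family or share its pathway were described from 5 lists. Of 57 genes, 42 were tested, 7 were called higher, and 5 lower between treated and control osteoblasts, beside 3.81% higher and 5.84% lower of all genes tested. The list medians of the log2 fold change were 0.91 for relatives, 0.75 for modifying enzymes, -0.08 for receptors, -0.95 for regulators, and -0.31 for osteocyte genes, beside 0.01 over all genes tested.

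Among the relatives, which belong to the gene family of secretory calcium-binding phosphoproteins or to that of osteonectin, 2 of 7 were tested. Sparcl1 rose, as described above. Sparc, the collagen-binding osteonectin, fell from 9664 ± 385 to 1957 ± 140 CPM (SD, n = 3, log2 fold change -2.30, SE 0.06, edgeR adjusted p = 2.46e-14), with 3755 CPM in ECs. The enamel genes Ambn, Amelx, Amtn, Enam, and Odam had too few counts.

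Of 18 enzymes that phosphorylate, cleave, or crosslink these proteins, 13 were tested, 5 rose, and 1 fell. Fam20c, the kinase of the serine sites counted above, rose from 48.7 ± 2.37 to 279 ± 13.5 CPM (SD, n = 3, log2 fold change 2.52, SE 0.05, edgeR adjusted p = 6.18e-16). The collagenase Mmp13 rose from 10.7 to 601 CPM (log2 fold change 5.80), and cathepsin B, encoded by Ctsb, from 417 to 1834 CPM (2.14). The crosslinking enzymes also rose, Tgm2 from 4.98 to 51.0 CPM (3.38) and F13a1 from 0.476 to 34.0 CPM (6.19). The tolloid protease gene Tll1 fell from 1.64 to 0.0555 CPM (-4.83), with 1 to 3 counts in treated libraries. Of the 7 tested enzymes not called, 4 were higher and 1 was lower with an FDR under 0.01 and a smaller fold. Among these was Mmp9, at 3.94 CPM in controls and 10.3 CPM after treatment (1.40).

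Of 11 receptor genes, 10 were tested, and 1 was called in each direction, while 2 were higher and 3 lower with an FDR under 0.01 and a smaller fold. Itgb3, the β-subunit of the vitronectin receptor that binds Spp1 and Ibsp, rose from 19.2 CPM (18.2 to 20.2) to 114 CPM (112 to 117, range, n = 3, log2 fold change 2.57), with 277 CPM in ECs. Its partner Itgav was at 308 CPM in controls and 409 CPM in treated osteoblasts (0.41). Itga9, whose integrin binds a cleaved form of Spp1, fell from 39.9 to 6.93 CPM (-2.52). Cd44, a receptor for hyaluronan and Spp1, was at 574 CPM in controls and 302 CPM after treatment (-0.93) and did not pass the fold threshold.

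All 13 genes for transcription factors that act on bone matrix genes were tested, 2 fell, and 0 rose. Sp7 (osterix), required for osteoblast formation, fell from 298 ± 11.6 to 25.98 ± 1.36 CPM (SD, n = 3, log2 fold change -3.52). Tcf7, a partner of β-catenin, fell from 75.9 to 1.79 CPM (-5.41). With an FDR under 0.01 and a smaller fold, 8 were lower and 2 higher. The higher ones were Ets1, at 35.98 CPM in controls and 64.98 CPM after treatment (0.86), and Jun, at 34.9 and 43.4 CPM (0.32). Among the lower ones were Runx2 at 158 CPM in controls and 116 CPM in treated osteoblasts (-0.44) and Dlx5 at 62.2 and 27.7 CPM (-1.17).

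The 9 osteocyte genes were listed because Dmp1 is used as an osteocyte marker. Of these, 5 were tested and 0 were called. Irx5, a homeobox gene, was at 137.9 CPM in controls and 63.7 CPM after treatment, and its log2 fold change of -1.12 had an FDR under 0.01 but did not reach the fold threshold. Pdpn (podoplanin) was at 97.0 CPM in controls and 97.7 CPM after treatment, and Phex, which cleaves peptides of Mepe and Spp1, at 0.744 and 0.532 CPM. Sost (sclerostin) had 0 counts in every control library and 1 count in each treated library. Fgf23, Npy, Tnfsf11, and Dkk1 had too few counts to be tested.

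**Figure D5:**
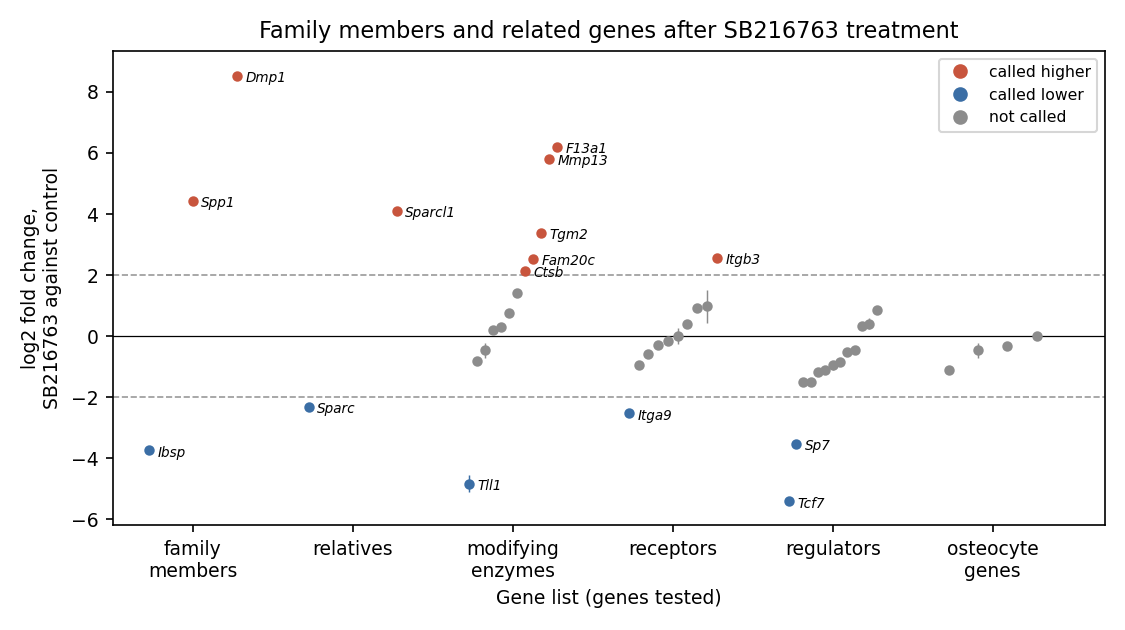
Log2 fold change between treated and control osteoblasts for the tested members and the tested genes of the 5 lists, by list, with error bars of 1 SE, called genes in colour, and dashed lines at the threshold of 2. Of the list genes, F13a1 (6.19) and Mmp13 (5.80) lie highest and Tcf7 (-5.41) and Tll1 (-4.83) lowest; Sost and Mmp3, with at most 1 count in any osteoblast library, are not drawn.

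Markers of other cell types were summed in the same libraries, and their part in the members' changes was not tested. Of 4 smooth muscle markers, Acta2, Tagln, and Cnn1 fell, and the sum went from between 2827 and 3019 CPM to between 135 and 153 CPM. Acta2 made up nearly all of this sum (2915 CPM in controls and 144 CPM after treatment). Cnn1 had 4 to 17 counts in controls and 0 to 3 counts in treated libraries. The 5 osteoclast markers summed to between 129 and 143 CPM in controls and to between 263 and 284 CPM in treated osteoblasts, of which Ctsk alone was tested, and it was higher with an FDR under 0.01 but not called. The 4 chondrocyte markers summed to between 54.6 and 65.8 CPM and to between 118 and 122 CPM, with both tested genes higher at an FDR under 0.01 but 0 called. The 4 osteocyte markers summed to between 91.5 and 103 CPM and to between 92.3 and 102 CPM, again with 0 called. Pdpn made up nearly all of this sum (97.0 CPM in controls and 97.7 CPM after treatment), so the sum describes Pdpn alone.

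The genes whose profile over the 9 libraries was most like each member's were found by the Euclidean distance of log2 CPM centred on the gene's mean. For Spp1 the nearest was its neighbour Sparcl1 (distance 1.15), followed by Zfp618 (1.32) and Rnu1a1 (1.43). For Ibsp they were Aspn (0.257), which encodes the matrix proteoglycan asporin, the secreted Wnt-binding gene Sfrp2 (0.869), and the collagen gene Col1a1 (0.896). Aspn was at 580 ± 58.6 CPM in controls, 44.9 ± 4.71 CPM in treated osteoblasts, and 0.416 ± 0.176 CPM in ECs (SD, n = 3). For Dmp1 the distances were larger, with Sema5a (2.95), Arhgap22 (3.07), and Mme (3.10) nearest. By Pearson correlation Aspn stayed first for Ibsp, while Matn2 was first for Spp1 and Pip4k2c for Dmp1. These profiles rest on 3 groups of libraries and describe levels only.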

How the data were processed

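RNA-Seq libraries of control MC3T3-E1 osteoblasts, SB216763-treated osteoblasts, and pulmonary ECs were used, 3 of each. The authors aligned reads with STAR (2.5.3a on GRCm38, per the submitters' processing notes) and deposited raw counts per gene, without normalization. The annotation and strand setting are not given in the sources used here, so overlapping and antisense genes are uncertain. Columns were matched to libraries by name, and symbols were found for 50376 identifiers.

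Counts were analyzed in R 4.3.3 with edgeR 4.0.16, using filterByExpr, TMM, and a quasi-likelihood fit of all 9 libraries, with Benjamini-Hochberg adjustment over 15531 genes. The call threshold was a log2 fold change of 2 in either direction with an FDR under 0.01, as in the study's methods. SEs come from the F statistic, log2 fold changes use a prior count of 0.125, and log2 CPM values for profiles use a prior count of 2. Such SEs are too small where a group has few counts, as Dmp1 has in controls and ECs and Ibsp in ECs. Depth was 30990107 to 68946333 counts per library. Replicates of a group differed by more than sampling noise (chi-square per gene of at least 3.07). For pairs of libraries this value was 30.2 to 119 in controls, 3.45 to 30.3 in treated osteoblasts, and 3.07 to 5.00 in ECs.

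Named genes are the members, 5 neighbours on each side, 5 pathway lists, cell type markers, and for each tested member the 3 nearest profiles. Members and lists were chosen with earlier results of these data known, and promoter motifs after the sequences were seen. Other settings tried were DESeq2 1.42.0, limma-voom from limma 3.58.1, other scalings, filters, thresholds, prior counts, fits of the groups compared only, a replicate block, coding lengths, and leaving out each library.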

Additional observations from a re-analysis of the deposited data

How the results depend on the processing

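Under 20 alternative settings, the calls of Spp1, Dmp1, and Ibsp between treated and control osteoblasts kept their direction and their side of the threshold, with log2 fold changes of 4.41 to 4.64 for Spp1, 8.17 to 8.84 for Dmp1, and -3.80 to -3.53 for Ibsp. The only member call that changed was Dmp1 in controls against ECs, which was gained at a log2 fold change threshold of 1 (1.55, edgeR adjusted p = 0.00632) and without EC replicate 3, and ranged from 1.23 to 2.10 over 19 settings. In a fit of controls and ECs alone Dmp1 was not kept by the filter on low counts and has no value. At the threshold of 1, the cluster neighbours called higher became 4 in place of 2, and the pathway list genes called lower became 10 in place of 5. Scaling by library size only moved the median log2 fold change of all genes by 0.20 between treated and control osteoblasts and by -0.13 between controls and ECs, and gave a summed family level of 335 CPM in controls and 4943 CPM in treated osteoblasts. With the replicate number as a block, 2 members were higher and 1 lower, and the log2 fold changes were 4.44 for Spp1, 8.52 for Dmp1, and -3.73 for Ibsp. Same-numbered libraries deviated together weakly or not at all (correlations of -0.0392 to 0.124). These correlations cannot show whether cultures were paired. The replicate block changed no member's call. Over all results and settings, 675 values kept direction and side of the threshold or stayed within the spread, 8 moved, 2 newly passed the call threshold (both of them Dmp1 in controls against ECs), and 0 reversed.

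The main limits are 3 libraries per group, 1 cell line, no stated culture time for the controls, and a depth at which Mepe and Dspp lay at or under 3 counts. EC values of Dmp1 and Ibsp rest on 1 to 4 counts, so their ratios carry wide counting intervals. Counts measure RNA and not secreted or phosphorylated protein.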
